A study of Mus musculus with 9 samples.

Results

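The genes examined here are 8 genes by which mast cells are recognized. They are the granule protease genes Cpa3, Mcpt4, Cma1, Tpsb2 and Tpsab1, the genes Fcer1a and Ms4a2 of the high-affinity IgE receptor, and the growth factor receptor gene Kit. They were chosen by name, with earlier results of these data known, and each was represented by its brightest probe. Of the 8 genes, 7 had a probe that could be named, and these 7 genes had 8 probes among the 39303 probes kept. No probe was named for Tpsab1, which was not analysed here. In all, 19698 genes had a named probe, and shares over the array are given over probes. The study examined lung injury after high-dose irradiation of the left lung in C57BL/6 male mice that were 10 weeks old. Single-color microarrays of lung RNA were available for 4 control samples and 5 samples labeled as irradiated left lung tissue. The mice were anesthetized with zoletil and rompun for irradiation. The labels gave no dose, lung region or time after irradiation, and the study pooled RNA from triplicate experiments before labeling, so each array is a pool and the spread between irradiated arrays includes any such difference. Nothing in the labels said whether the pools of a group came from separate mice, so p-values measure only the spread between these arrays, which may be technical.

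Mast cells are tissue-resident granulocytes that mature under the growth factor Kit ligand. In the lung they lie around airways and vessels and in the pleura, and they are known for the release of granules when antigen crosslinks IgE on their surface. The granules hold histamine, heparin on the core protein serglycin, carboxypeptidase A3, chymases and tryptases. The IgE receptor consists of an alpha chain that binds IgE (Fcer1a), a signal-amplifying beta chain (Ms4a2) and a signaling gamma chain (Fcer1g), which other leukocytes share. Kit is also made by cells other than mast cells, endothelial cells of lung capillaries among them. Tpsab1 encodes a second tryptase that C57BL/6 mice are known to lack because of a splice-site mutation, and RefSeq lists it as a transcribed pseudogene.

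Several of these genes are known targets of GATA factors, which bind a core of the letters GATAA. The bases before the gene start are therefore shown for the 5 genes that held these letters. Whether the letters bear on how these genes varied across arrays was not tested. The sequences come from RefSeq promoter entries on the build GRCm38.p6, run 5′ to 3′ on the strand of the gene and end before it. Each entry starts counting at a transcript start. For Cpa3, Ms4a2 and Fcer1a the widest annotated span of the gene begins 28, 71 and 3 bases farther upstream, and these bases are not printed. They lie at chr3:20242210-20242431 (Cpa3), chr14:56062311-56062560 (Mcpt4), chr14:55944676-55944925 (Cma1), chr19:11623791-11623969 (Ms4a2) and chr1:173227233-173227479 (Fcer1a), all on the minus strand. Capitals mark GATAA, or TTATC where the match is on the other strand. No other motif was searched.
Cpa3: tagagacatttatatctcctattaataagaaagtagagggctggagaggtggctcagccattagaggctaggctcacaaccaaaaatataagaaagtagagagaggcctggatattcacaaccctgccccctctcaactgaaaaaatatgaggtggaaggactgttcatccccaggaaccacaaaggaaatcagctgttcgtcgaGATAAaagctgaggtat
Mcpt4: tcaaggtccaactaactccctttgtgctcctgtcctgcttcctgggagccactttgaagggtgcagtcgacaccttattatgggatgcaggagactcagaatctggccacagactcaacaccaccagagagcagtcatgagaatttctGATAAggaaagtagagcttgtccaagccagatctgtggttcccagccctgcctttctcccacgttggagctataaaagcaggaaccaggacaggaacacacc
Cma1: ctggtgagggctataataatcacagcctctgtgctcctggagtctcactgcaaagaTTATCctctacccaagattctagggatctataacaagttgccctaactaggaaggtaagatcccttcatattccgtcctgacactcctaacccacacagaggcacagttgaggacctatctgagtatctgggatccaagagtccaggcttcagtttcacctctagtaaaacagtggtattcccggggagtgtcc
Ms4a2: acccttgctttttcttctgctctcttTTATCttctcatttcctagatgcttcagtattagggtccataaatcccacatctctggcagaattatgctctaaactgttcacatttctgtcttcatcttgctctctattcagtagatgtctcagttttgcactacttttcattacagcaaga
Fcer1a: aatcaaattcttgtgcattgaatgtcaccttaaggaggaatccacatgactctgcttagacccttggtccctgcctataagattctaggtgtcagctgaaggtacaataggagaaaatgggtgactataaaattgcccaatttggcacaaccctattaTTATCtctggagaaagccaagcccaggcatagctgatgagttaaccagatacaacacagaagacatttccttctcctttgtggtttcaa

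Of the 6 genes with a promoter entry, 5 held at least 1 match in the 250 bases before the transcript start of the entry, and 22.6% of all 32851 promoter entries held one in a window of that length. The match began 45 bases before that start in Cpa3, 102 bases before it in Mcpt4, 194 in Cma1 and 92 in Fcer1a. Ms4a2 held 3 matches, at 224, 37 and 10 bases before that start, and 0.712% of entries held 3 or more. Of these only the match at 224 lies before the gene's widest annotated span; the other 2 lie within it and are not printed. Both promoter entries of Kit lacked these letters in this window. These matches describe the sequence and are not binding sites shown by these data.

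All values below are log2 signal after quantile normalization across the 9 arrays, and a difference is irradiated minus control. The difference was tested with limma, adjusted by the Benjamini-Hochberg method over all 39303 probes at an adjusted p under 0.05. On the whole array 131 probes passed, or 0.333%, and the median difference of all probes was -0.0037. Between 72.8% and 89.1% of gene spots per array were well above background, and no spot was saturated. The irradiated 1 array read low for cardiac muscle markers and the control 3 array high for skeletal muscle markers (values further below). Brightness differs between probes, so signals of different probes are not compared as expression levels. The brightest gene of a list is only the one with the highest probe signal.

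None of the 7 measured mast cell genes passed the threshold in limma. The smallest adjusted p was 0.0880, for Kit, and 1 of 7 genes had an unadjusted p under 0.05 both in limma and in the exact permutation test, against 9.94% of all probes in limma and 9.45% in the permutation test. The exact permutation test adjusted over all probes called no probe on the array. The median difference of the 7 genes as measured was -0.22, with 2 above 0 and 5 below. Those below include Ms4a2, which was near the detection limit and is not read as a direction. With the filter on all 9 arrays, which leaves out Ms4a2, the median was -0.13. In bulk tissue, fewer cells of a type and less RNA per cell cannot be told apart.

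**Figure D1:**
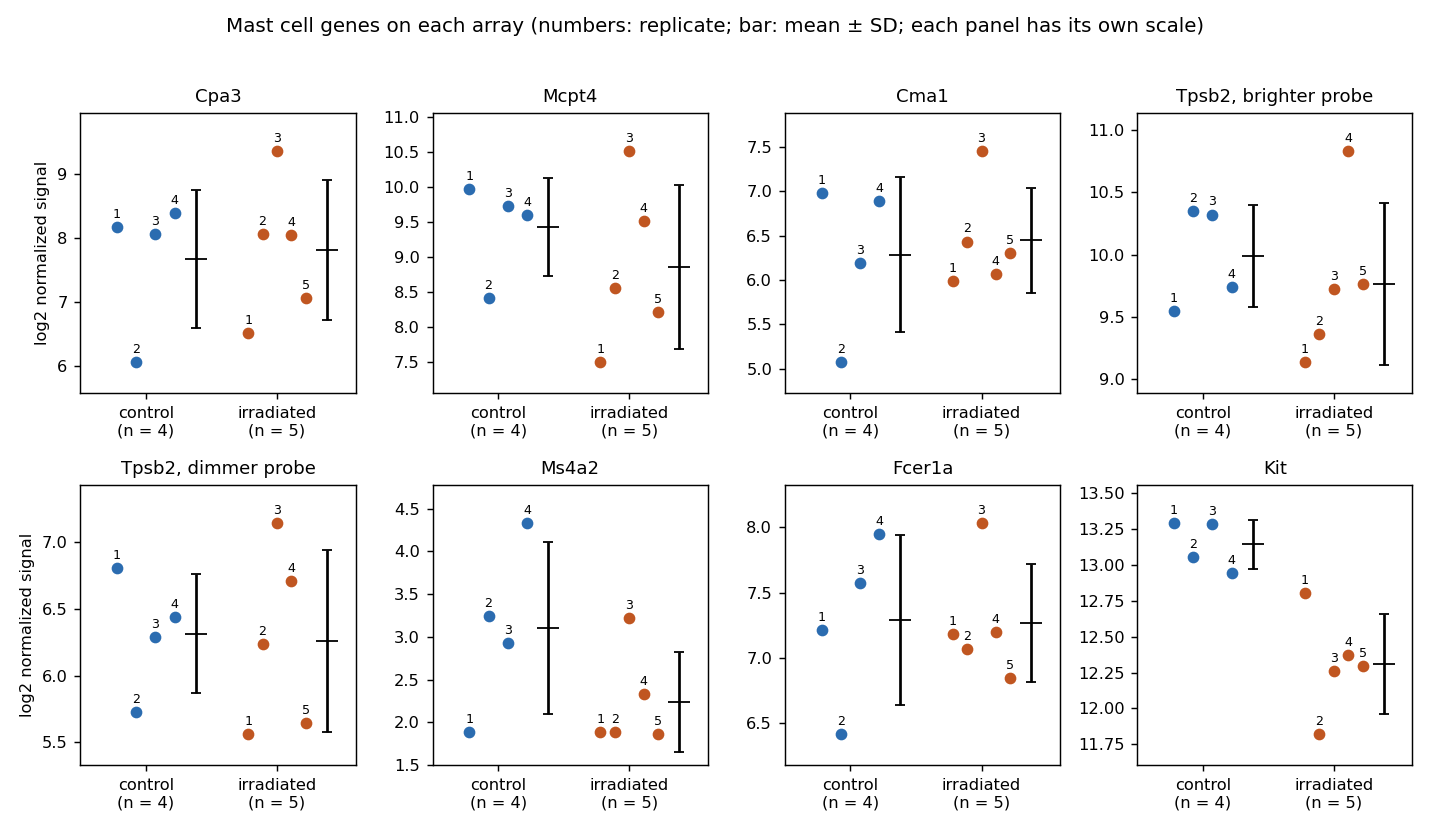
Log2 normalized signal of each mast cell gene probe on the 4 control and 5 irradiated arrays, with the replicate number beside each point and the mean ± SD as a bar; each panel has its own scale. Kit is the only gene whose groups do not overlap, and irradiated 3 is the highest point for Cpa3, Mcpt4, Cma1, Fcer1a and the dimmer Tpsb2 probe.

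Cpa3 encodes carboxypeptidase A3, an exopeptidase of the granule. Its control arrays read 8.17, 6.06, 8.06 and 8.39 and its irradiated arrays 6.51, 8.06, 9.36, 8.05 and 7.06. The control 2 array stood about 2 log2 units below the other control arrays, and the irradiated arrays lay on both sides of them. The means were 7.67 ± 1.08 (SD, n = 4) and 7.81 ± 1.09 (SD, n = 5). The difference was 0.14 (SE 0.62, 95% interval -1.25 to 1.53, limma adjusted p = 0.986), smaller than the spread within either group. A single array set its direction: without control 2 the difference was -0.40, and without irradiated 3 it was -0.25.

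Mcpt4 encodes a chymase of connective tissue mast cells. It read 9.96, 8.41, 9.73 and 9.59 in the control arrays and 7.51, 8.56, 10.51, 9.51 and 8.22 in the irradiated arrays. Irradiated 1, 2 and 5 were near or below the lowest control array, and irradiated 3 was above the highest. The difference was -0.56 (SE 0.57, 95% interval -1.82 to 0.70, limma adjusted p = 0.841). It was -0.22 without irradiated 1, -0.90 without control 2 and -0.97 without irradiated 3. The irradiated arrays spanned 3.00 log2 units, or 8.01-fold, against 1.55 in the control arrays. Of the probes well above background on all 9 arrays, 1.03% spanned as much or more among the irradiated arrays. For Cpa3 the span was 2.85, reached by 1.17% of these probes, and its span of 2.33 among the control arrays was reached by 1.12%.

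Cma1 encodes mast cell protease 5, the mouse member of the alpha-chymase family. The control arrays read 6.98, 5.08, 6.20 and 6.90, and the irradiated arrays 5.99, 6.44, 7.46, 6.07 and 6.30. As for Cpa3, control 2 was the lowest and irradiated 3 the highest of the 9 arrays. The groups overlapped, and the difference was 0.16 (SE 0.43, 95% interval -0.80 to 1.13, limma adjusted p = 0.967). It was -0.24 without control 2 and -0.09 without irradiated 3.

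Tpsb2 encodes the tryptase mast cell protease 6 and had 2 probes with the same accession. The brighter probe read 9.55, 10.35, 10.32 and 9.74 in the control arrays and 9.14, 9.36, 9.73, 10.83 and 9.77 in the irradiated arrays, a difference of -0.22 (SE 0.33, 95% interval -0.95 to 0.50, limma adjusted p = 0.906). Its difference was -0.07 without irradiated 1 and -0.49 without irradiated 4. The dimmer probe read 6.80, 5.73, 6.29 and 6.44 against 5.57, 6.24, 7.14, 6.71 and 5.64, a difference of -0.06 (SE 0.36, limma adjusted p = 0.994). The probes disagreed on the order of the arrays. Control 2 was the highest control array for the brighter probe and the lowest for the dimmer one, and the highest irradiated array was irradiated 4 for the brighter and irradiated 3 for the dimmer probe. Their Pearson correlation over the 9 arrays was 0.19 (Spearman 0.13), given as a description. Between the dimmer probe and Mcpt4 it was 0.93 (Spearman 0.93). RefSeq places Tpsab1 beside Tpsb2 on chromosome 17, and whether either probe also binds RNA of a related tryptase gene was not tested.

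The alpha chain gene Fcer1a read 7.21, 6.42, 7.57 and 7.95 in the control arrays and 7.18, 7.07, 8.03, 7.20 and 6.84 in the irradiated arrays. Control 2 was again the lowest array and irradiated 3 the highest. The group means of 7.29 ± 0.65 (SD, n = 4) and 7.26 ± 0.45 (SD, n = 5) differed by -0.02 (SE 0.33, 95% interval -0.76 to 0.72, limma adjusted p = 1.00).

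The beta chain gene Ms4a2 was close to the detection limit. Its probe was well above background on 2 of 4 control arrays and on 0 of 5 irradiated arrays. The control arrays read 1.89, 3.25, 2.93 and 4.33 and the irradiated arrays 1.88, 1.89, 3.22, 2.33 and 1.87, and values near 1.9 lie at the bottom of the signal range and have no order. The means were 3.10 and 2.24 as measured. No fold is given, because the probe was also not well above background on 2 control arrays, and without control 4 the measured difference of -0.86 became -0.44. The difference did not pass the test (limma adjusted p = 0.615). With scaling to the 75th percentile the difference was -1.13 (limma adjusted p = 0.318), and with normexp background correction it was -0.19 (limma adjusted p = 0.301).

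Kit encodes the receptor for Kit ligand, on which mast cells depend for survival. Its control arrays read 13.29, 13.06, 13.28 and 12.95, and its irradiated arrays 12.80, 11.82, 12.26, 12.37 and 12.30. All 5 irradiated arrays lay below all 4 control arrays, which held for 1.65% of all probes, and the nearest pair, control 4 and irradiated 1, was close. The means were 13.14 ± 0.17 (SD, n = 4) and 12.31 ± 0.35 (SD, n = 5). The difference was -0.83 (SE 0.17, 95% interval -1.22 to -0.45), with the control mean 1.78-fold the irradiated mean. It had an unadjusted limma p of 0.00069 and an exact two-sided permutation p of 0.0159, where the smallest p that 4 against 5 arrays allow is 0.00794. Adjusted over all probes, limma gave 0.0880, so the gene did not pass. The adjusted permutation test gave 0.385, but it called no probe on the array, so that value says nothing about Kit. Without irradiated 1, the array that read low for cardiac muscle markers, the difference was -0.95 and the limma adjusted p was 0.0207, in a fit that called 1.23% of all probes. Kit lay lower in the irradiated group in all 22 other settings, with differences from -0.96 to -0.71. The adjusted p values ran from 0.00559 to 0.385, and the highest came from the exact permutation test.

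The number of a replicate did not pair the arrays, but the spot grids did. By the position and tilt of the grid, 8 of the 9 arrays fell into 4 pairs that appear to have been scanned together, each with 1 control and 1 irradiated array, and irradiated 1 had no partner. The deviations of paired arrays from their group means correlated at 0.201 to 0.455 across probes, and those of all other control and irradiated combinations at 0.0622 at most. Kit was lower in the irradiated array of all 4 pairs, by -1.47, -0.80, -0.91 and -0.65. With the pair as a block, the difference was -0.96 (SE 0.14, limma adjusted p = 0.0448), in a fit that called 2.80% of all probes. With the pair as a random block it was -0.91 (SE 0.13, adjusted p = 0.00559), in a fit that called 7.38% of them. These pairs were found after the data were seen, and both fits call more probes than the fit without pairs, so the Kit result passed or missed the threshold according to the fit.

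**Figure D2:**
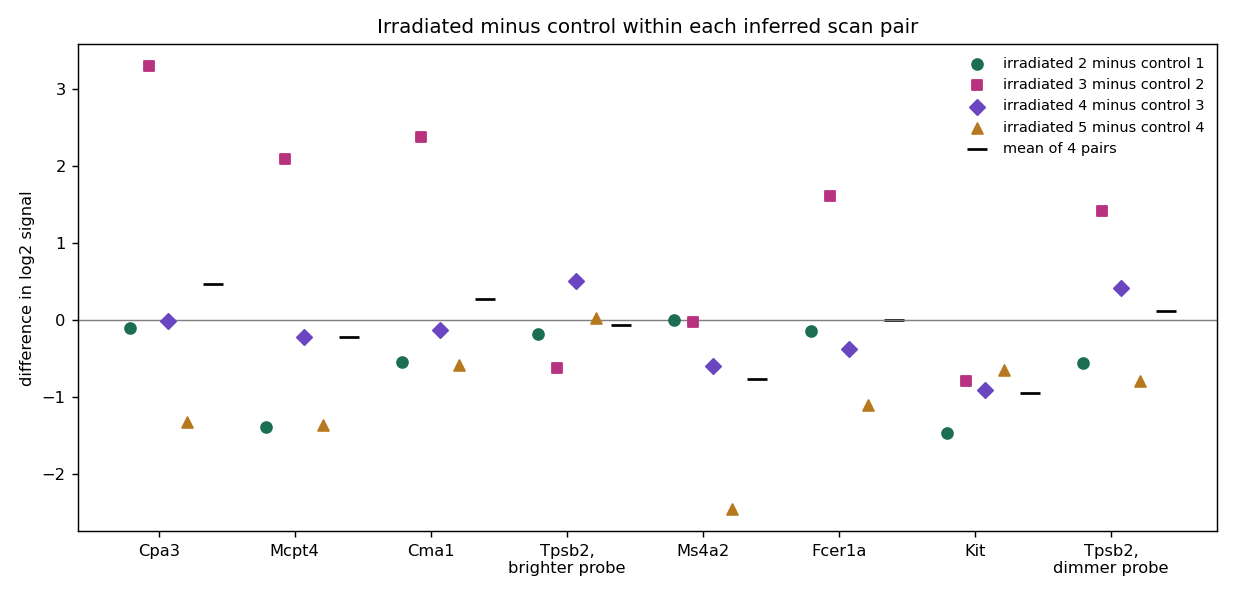
Difference in log2 signal between the irradiated and the control array of each of 4 inferred scan pairs, for each mast cell gene probe, with the mean of the pairs as a dash. For Kit all 4 pairs lie below 0, and for Cpa3, Mcpt4, Cma1 and Fcer1a the pair of irradiated 3 and control 2 lies above 0 and the other pairs below it. Ms4a2, near the detection limit, also has no pair above 0.

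Cpa3, Mcpt4, Cma1 and Fcer1a split within the pairs. For Cpa3, the pair of irradiated 3 and control 2 differed by 3.30, and the other pairs by -0.11, -0.01 and -1.33. Mcpt4 showed the same split, with 2.10 against -1.40, -0.22 and -1.37. Cma1 had 2.38 against -0.55, -0.13 and -0.59, and Fcer1a 1.62 against -0.14, -0.37 and -1.10. Each was thus lower in the irradiated array of 3 of 4 pairs and higher in the fourth. The mean over pairs was 0.46 ± 1.99 for Cpa3 and -0.22 ± 1.64 for Mcpt4 (SD, n = 4), within the spread. With the pair as a block the adjusted p was 0.770 for Cpa3, 0.872 for Mcpt4, 0.812 for Cma1 and 1.00 for Fcer1a. The Tpsb2 probes did not follow this split, and each was lower in the irradiated array of 2 of 4 pairs. In the order of irradiated 2 to 5, the brighter probe differed by -0.19, -0.63, 0.51 and 0.03 and the dimmer one by -0.56, 1.42, 0.42 and -0.80. As measured, Ms4a2 was lower in the irradiated array of all 4 pairs, by -0.001, -0.031, -0.598 and -2.464 (limma adjusted p = 0.407 with the pair as a block). Values at its level have no order, so this is not read as a direction.

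Cpa3, Mcpt4, Cma1, Fcer1a and the dimmer Tpsb2 probe varied together among arrays of 1 label, and the brighter Tpsb2 probe did not vary with them. Of the 7 probes well above background on all arrays, which leaves out Ms4a2, 5 had their highest irradiated value on irradiated 3, which was the highest irradiated array for 15% of all such probes. Irradiated 1 was the lowest irradiated array for 5 of 7, against 16.6%, and control 2 the lowest control array for 5 of 7, against 28.9%. Kit ran otherwise: irradiated 1 was its highest irradiated array and irradiated 2 its lowest. Over the 9 arrays, Cpa3 correlated with Mcpt4 at r = 0.86, with Cma1 at 0.88, with Fcer1a at 0.84 and with the dimmer Tpsb2 probe at 0.91. It correlated with the brighter Tpsb2 probe at -0.01 and with Kit at -0.23. Set against the mean of the other members, r was 0.90 for Mcpt4, 0.84 for the dimmer Tpsb2 probe, 0.79 for Fcer1a, 0.74 for Cpa3, 0.58 for Cma1, 0.45 for Ms4a2, 0.09 for the brighter Tpsb2 probe and 0.05 for Kit. Without the 2 arrays farthest from the median of that mean, r was 0.96 for Mcpt4, 0.92 for Fcer1a, 0.85 for the dimmer Tpsb2 probe, 0.83 for Cpa3, 0.64 for Ms4a2, 0.63 for Cma1, 0.39 for Kit and 0.32 for the brighter Tpsb2 probe. These values describe 9 arrays that share 2 labels and a common normalization, and no p is given. The r of Ms4a2 rests on values near the detection limit, most of them not well above background, and is not read as an order.

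**Figure D3:**
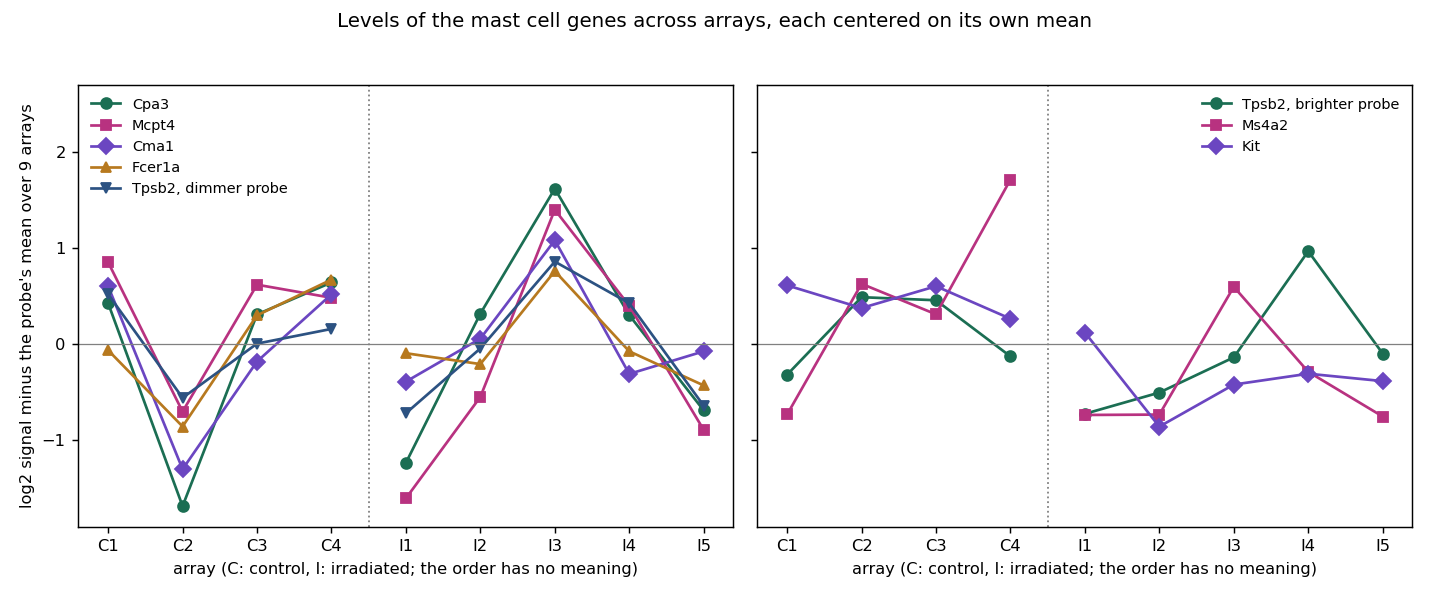
Log2 signal of each probe minus its mean over the 9 arrays (C1 to C4 control, I1 to I5 irradiated). Cpa3, Mcpt4, Cma1, Fcer1a and the dimmer Tpsb2 probe (left) share a low control 2 and a high irradiated 3; the brighter Tpsb2 probe, Ms4a2 and Kit (right) do not share that shape.

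Among 16282 other genes that were well above background on at least 5 arrays, those whose profile was most like the mean of the 7 centered members were Mcpt-ps1 (r = 0.95 over 9 arrays), Cma2 (0.92), Fcrla (0.92), Mbp (0.91) and Fosb (0.91). Of the genes compared, 0.0307% had an r over 0.9. The mean includes Ms4a2, whose values lie near the detection limit. Mcpt-ps1, a transcribed pseudogene, and Cma2, a chymase gene, belong to the mast cell protease cluster. RefSeq places Mcpt-ps1 and Cma2 between Cma1 and Mcpt4 on chromosome 14. Fcrla encodes an Fc receptor-like protein of B cells, Mbp a myelin protein and Fosb an early-response transcription factor. Mcpt-ps1 read 6.82, 4.63, 6.62 and 6.62 in the control arrays and 4.51, 5.25, 7.02, 6.35 and 4.93 in the irradiated arrays, so that control 2 was low and irradiated 3 high there too. Cma2 read 9.71, 9.12, 9.64 and 9.58 against 8.62, 9.22, 9.95, 9.52 and 8.75. Their differences between the groups were -0.56 (limma adjusted p = 0.854) and -0.30 (limma adjusted p = 0.817). The probes of such related protease genes can share sequence, and whether they bind each other's RNA was not tested.

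Not all genes of this cluster had that profile. The cluster was looked at after these values were seen. Mcpt2, a chymase gene of mucosal mast cells, read 6.96, 6.93, 4.35 and 4.90 in the control arrays and 5.61, 6.69, 6.92, 6.98 and 7.06 in the irradiated arrays (r = -0.29 with the mean of the members). Mcpt1, its mucosal neighbor, was well above background on 1 control and 1 irradiated array. Mcpt8, a protease gene of basophils, correlated with the mean of the members at 0.70, and Ctsg, the cathepsin G gene, at 0.61. The members Mcpt4 and Cma1, which are part of that mean, gave 0.94 and 0.70, so Mcpt8 was as close to it as Cma1. Gzmb, the granzyme B gene of cytotoxic lymphocytes, gave 0.23.

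The other genes of mast cell function were grouped by role, and 59 were measured. None passed the threshold in limma. Of these 59, 11 had an unadjusted limma p under 0.05, against 9.94% of all probes, and 8 an unadjusted exact permutation p under 0.05, against 9.45%. The smallest adjusted p was 0.0513. In 43 of the 59 the difference was above 0 and in 16 below, with a median of 0.12, and genes near the detection limit are included. All irradiated arrays lay above all control arrays for 3 of the 59, against 2.51% of all probes, and below them for 0.

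Of the 10 other granule genes, 6 were well above background on all arrays. As measured, 7 of the 10 differed upward and 3 downward, with a median of 0.17. The upward ones include Mcpt1, Mcpt9, Tpsg1 and Tph1, which were not well above background on all arrays. The tally and the median therefore rest in part on values without a measured direction. Hdc, which encodes the enzyme that makes histamine, read 14.56 ± 0.35 (SD, n = 4) and 14.64 ± 0.32 (SD, n = 5), a difference of 0.08. The brightest of the 10, Srgn, encodes serglycin, and it differed by 0.15. Tph1, a gene of serotonin synthesis named after its value was seen, had the only unadjusted limma p under 0.05 among the 10. Its difference as measured was 1.94 (limma adjusted p = 0.424). The probe was well above background on 1 control and 3 irradiated arrays, so this difference is not exact. Of the 4 transcription factor genes, 3 differed downward, with a median of -0.42, and 2 had an unadjusted limma p under 0.05. The largest difference was that of Gata1, named after its value was seen, at -0.79 (limma adjusted p = 0.322). Gata2, which mast cells need for their identity, differed by -0.51 (SE 0.17, limma adjusted p = 0.293). It read between 12.20 and 12.89 in the control arrays and between 11.73 and 12.30 in the irradiated arrays, which overlap. With scan pairs as a random block the difference was -0.55 and the adjusted p 0.0156, and as a fixed block -0.57 and 0.0537. The random block was the only one of 22 other settings in which it passed, and that fit called 7.38% of all probes. Mitf, a transcription factor downstream of Kit, differed by 0.18 (limma adjusted p = 0.645). Of the 14 genes of IgE receptor signaling, 10 differed upward and 4 downward, between -0.22 and 0.47, and no gene had an unadjusted limma p under 0.05. Fcer1g, the gamma chain gene and the brightest of them, read 14.23 ± 0.16 (SD, n = 4) and 14.47 ± 0.25 (SD, n = 5).

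The 7 genes of eicosanoid synthesis had a median difference of 0.32, with 6 above 0. Ptgs1, the constitutive cyclooxygenase gene, read 12.82, 12.94, 12.74 and 12.40 in the control arrays and 13.12, 13.36, 13.91, 13.80 and 13.56 in the irradiated arrays. The inducible Ptgs2 read 8.71, 9.17, 9.77 and 9.95 against 10.24, 10.07, 10.80, 10.78 and 10.41. The groups did not overlap for either gene. The differences of 0.83 (SE 0.17, limma adjusted p = 0.0912) and 1.06 (SE 0.26, limma adjusted p = 0.157) did not pass. With the scan pair as a block the difference of Ptgs1 was 0.94 and its adjusted p 0.0334, and that of Ptgs2 was 1.12 with an adjusted p of 0.059. With the pairs as a random block the adjusted p was 0.00377 for Ptgs1 and 0.00929 for Ptgs2. Alox5ap, the partner of the leukotriene-forming enzyme 5-lipoxygenase and the brightest of the list, differed by 0.11. Many other lung cells make these enzymes.

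The ligands that act on mast cells, with their receptors, had a median difference of 0.36 over 17 genes, of which 14 lay above 0. Of the 17 genes, 12 were well above background on all arrays. Kitl, the Kit ligand gene, read 11.95, 12.04, 11.72 and 11.61 in the control arrays and 12.17, 12.36, 11.30, 11.80 and 11.77 in the irradiated arrays. These overlapped, and the difference was 0.05 (SE 0.20, 95% interval -0.39 to 0.50, limma adjusted p = 0.982). Il33, the gene of an alarmin that activates mast cells, read 13.18, 13.29, 13.23 and 12.82 against 13.16, 14.07, 14.29, 13.87 and 13.53. On irradiated 2 to 5 it lay above every control array and on irradiated 1 it did not, and the difference was 0.66 (SE 0.21, limma adjusted p = 0.292). With the scan pair as a block, which sets irradiated 1 aside, the Il33 difference was 0.81 (limma adjusted p = 0.0259), and as a random block 0.75 (0.0112). Without irradiated 1 alone it was 0.81 (0.0608), and without control 3 and irradiated 1 it was 0.84 (0.133), so it did not pass there. Il1rl1, which encodes the receptor of that alarmin, read 9.65, 9.99, 9.57 and 9.72 against 9.52, 9.55, 10.77, 10.98 and 10.57, a difference of 0.55 (limma adjusted p = 0.641). Crlf2, a subunit of the thymic stromal lymphopoietin receptor and the brightest of the list, differed by 0.39 (limma adjusted p = 0.274, with scan pairs 0.0688 as a fixed and 0.0197 as a random block). Il9 was not well above background on any array.

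Of the receptors for mast cell products, 7 of 8 had a named probe, with a median difference of 0.34. Cysltr1, the cysteinyl leukotriene receptor 1 gene, read 9.72, 9.68, 9.77 and 9.73 in the control arrays and 10.16, 10.18, 10.44, 10.44 and 10.27 in the irradiated arrays. The groups did not overlap, and the difference of 0.58 (SE 0.10) had an adjusted p of 0.0513 in limma, just over the threshold. Without irradiated 1 it was 0.61, with an adjusted p of 0.0307. With the scan pair as a block the adjusted p was 0.0354, as a random block 0.00199, with array weights 0.0423 and with the filter on all 9 arrays 0.0446. These are the 5 of 22 other settings in which it passed. In the rest it did not, and the adjusted p reached 0.837 in the authors' table.

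**Figure D4:**
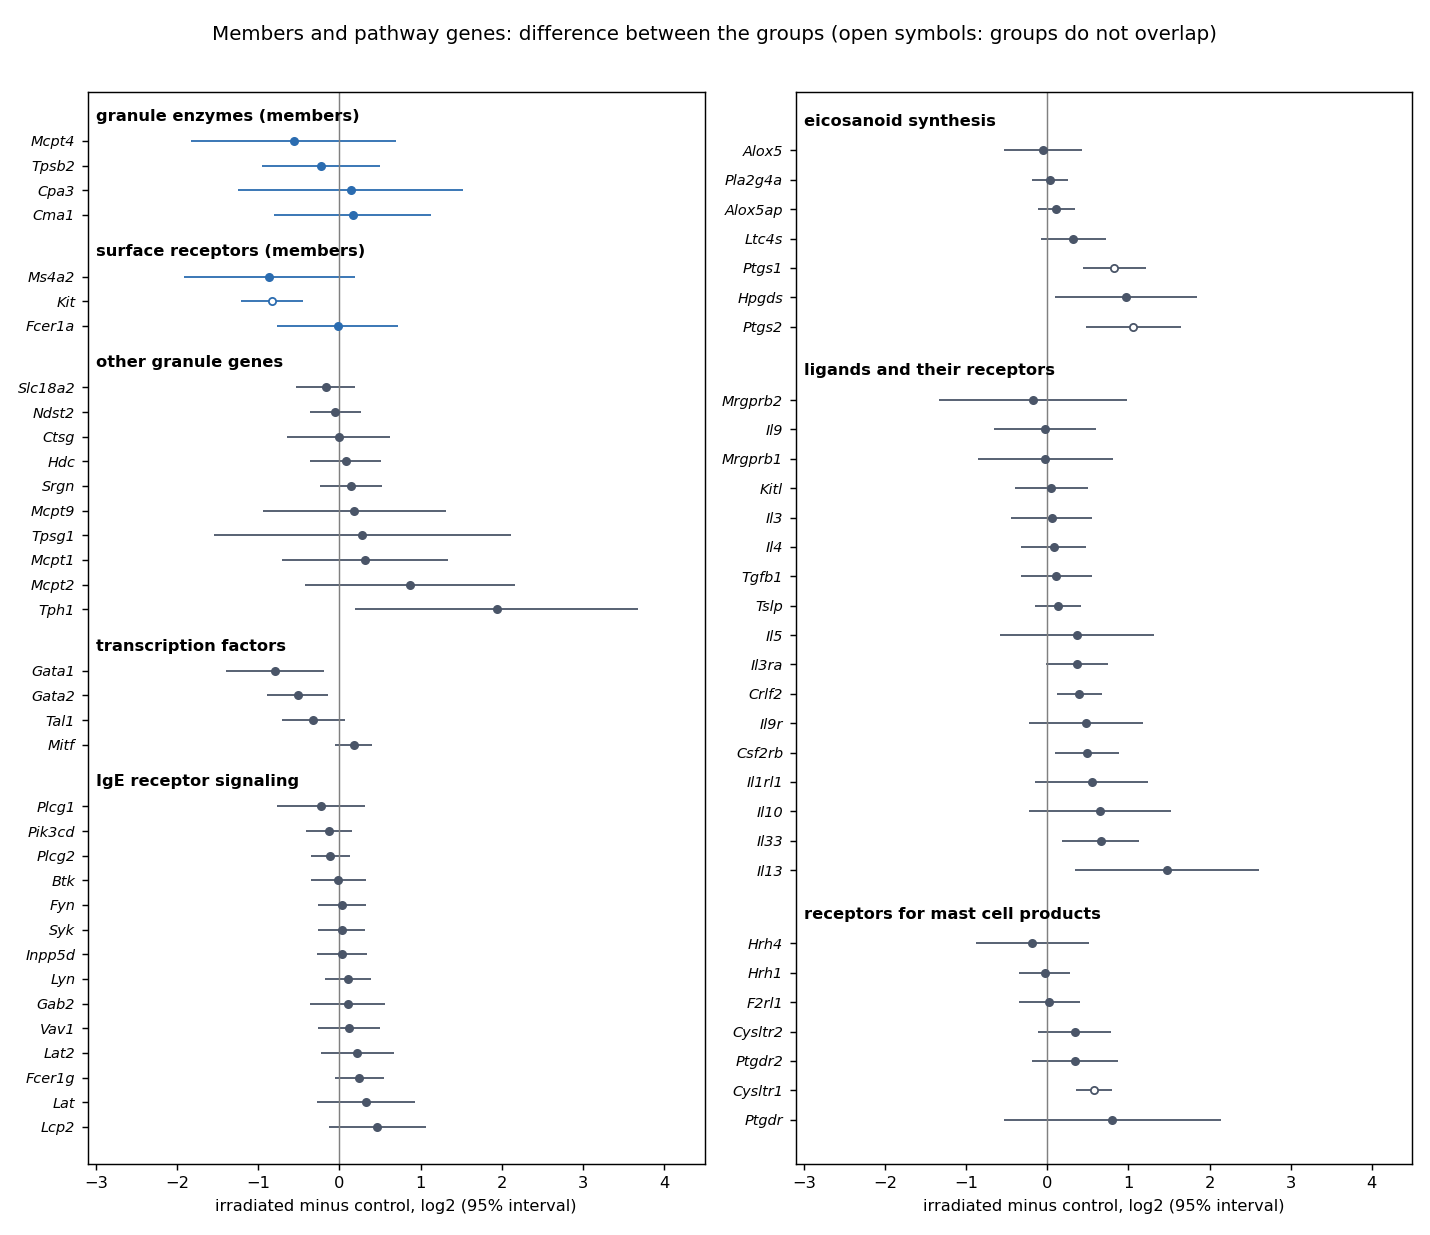
Difference between irradiated and control arrays with its 95% interval for the 7 measured mast cell genes and 59 pathway genes, ordered by size within each group; open symbols mark genes whose groups do not overlap. The intervals of the 4 granule protease genes span 0, and those of Kit and of 11 pathway genes, Ptgs1, Ptgs2 and Cysltr1 among them, do not reach it.

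Markers of other cells that could share these genes or come with the dissected tissue are given beside the members. Basophils share the IgE receptor genes. Their 3 markers were not called in limma: Mcpt8 differed by -0.78 (SE 0.74), Prss34 by -0.79 (SE 0.38) and Cd200r3 by 0.08 (SE 0.41), and none had an unadjusted limma p under 0.05. When 1 array was left out, Mcpt8 ranged from -1.28 to -0.22 and Prss34 from -0.98 to -0.42. Their mean level, set against the control mean, ran from -0.42 to 0.96 in the control arrays and from -1.44 to 0.37 in the irradiated arrays. Of the 5 eosinophil markers none was called or had an unadjusted limma p under 0.05 (Ccr3 had an exact permutation p of 0.0317), and Epx was not well above background on any array. As measured, all 5 differed downward, with a median of -0.40, but the direction of Epx is not measured at its level. Of the 5 markers, 3 were well above background on all arrays. Siglecf, the brightest of them, differed by -0.47, and by -0.76 to -0.27 when 1 array was left out. Group 2 innate lymphoid cells can make Kit and the alarmin receptor. Of their 5 markers, 4 differed upward and 1 downward, with a median of 0.43, and 2 had an unadjusted limma p under 0.05. Only 1 of the 5 was called in limma. This was Areg, the amphiregulin gene, at 8.90 ± 0.34 (SD, n = 4) and 11.53 ± 0.45 (SD, n = 5), a difference of 2.63 (SE 0.24, limma adjusted p = 0.00668), which many other cells make too. Rora, the brightest of that list, differed by 0.02. The 7 endothelial markers had a median difference of -0.10, and none was called. They differed downward in 4 and upward in 3, and 1 had an unadjusted limma p under 0.05. This was Tek, the angiopoietin receptor gene, named after its value was seen, with a difference of -0.71 (95% interval -1.27 to -0.14, limma adjusted p = 0.344). Cldn5, the brightest, differed by 0.18. Their part in the Kit difference was not tested.

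Other tissue moved between arrays. Cardiac muscle lines the pulmonary veins of mice. The mean of its 6 markers was -6.10 on irradiated 1 relative to the control mean and between -0.47 and 0.41 on the other 8 arrays. Actc1, the brightest of them, read 13.24 on irradiated 1 and 15.39 to 15.96 on the other irradiated arrays. Skeletal muscle markers stood at 4.31 on control 3 and between -2.70 and -1.20 on the other arrays, and Acta1 read 14.67 there and 9.89 to 10.42 on the other control arrays. Tnnt3 of that list was lower on all irradiated arrays than on all control arrays, with a difference of -2.60 (limma adjusted p = 0.386), and of -1.32 without control 3. The mean of 5 adipose markers was -3.18, -1.17, -2.27 and -3.05 on irradiated 1, 3, 4 and 5 and -0.01 on irradiated 2. On the control arrays it ran from -0.595 to 0.38. All 5 differed downward between the groups, with a median of -2.41, and 4 had an unadjusted limma p under 0.05. Cfd, the adipsin gene and the brightest of the 5, differed by -2.42 (limma adjusted p = 0.250, with scan pairs 0.0976 as a fixed and 0.0266 as a random block). The mean of 5 cartilage markers was 1.94 on control 1, -1.09 to -0.29 on the other control arrays and, on irradiated arrays, -0.76 to -0.37. For comparison, the mean of the 4 granule protease members was -1.06 on irradiated 1, 0.92 on irradiated 3 and -0.87 on control 2. On control 2, 9 of the 13 lists of other cells and tissues lay within the range of the other control arrays. Outside it were the skeletal list at -1.88 (others -1.24 to 4.31), the alveolar list at -0.15 (others -0.05 to 0.12), the basophil list at -0.42 (others -0.39 to 0.96) and the list of group 2 innate lymphoid cells at 0.08 (others -0.15 to 0.06). The mesothelial list was at -0.85 on control 1 and 2 and at 0.57 and 1.13 on control 3 and 4.

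Of the remaining lists, 1 gene was called. Chad, a cartilage gene, fell from 11.37 ± 0.39 (SD, n = 4) to 9.65 ± 0.40 (SD, n = 5), by 1.72 on the log2 scale (limma adjusted p = 0.0312). Its control arrays read 11.53, 11.67, 10.79 and 11.48, so that control 1, which read high for the cartilage list, lay within the others. It lost the call in 7 of 9 fits that left out 1 array. Among airway epithelial genes, Cyp2f2 of club cells was lower on all irradiated arrays (difference -0.56, limma adjusted p = 0.110). With scan pairs its adjusted p was 0.0486 as a fixed and 0.00663 as a random block. Scgb1a1, the brightest airway gene, differed by -0.03, and by -0.23 with 75th percentile scaling. All 6 smooth muscle genes differed downward, with a median of -0.55, and 3 had an unadjusted limma p under 0.05. Tagln, the brightest of them, had the smallest difference (-0.35). The 4 leukocyte genes had a median of -0.19, and Itgam, the brightest, had the largest difference (-0.51, limma adjusted p = 0.288, with scan pairs 0.136 as a fixed and 0.0415 as a random block). With the mean of all its probes the difference was -0.19 (adjusted p = 0.663). The mesothelial and alveolar lists had medians of -0.18 and 0.01, with -0.35 for Msln and 0.01 for Sftpc, their brightest genes. Sftpc read 19.36 or 19.43 on every array, and quantile normalization gives the brightest probes nearly the same values on all arrays. Its difference was therefore held near 0 by that step, and with 75th percentile scaling it was -0.20 (limma adjusted p = 0.727). The same step limits Scgb1a1, which read 19.08 to 19.19. Msln had -0.076 without control 4 and -0.54 without control 1. No gene of these 4 lists was called in limma. The part of these tissues in the spread of the mast cell genes was not tested.

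**Figure D5:**
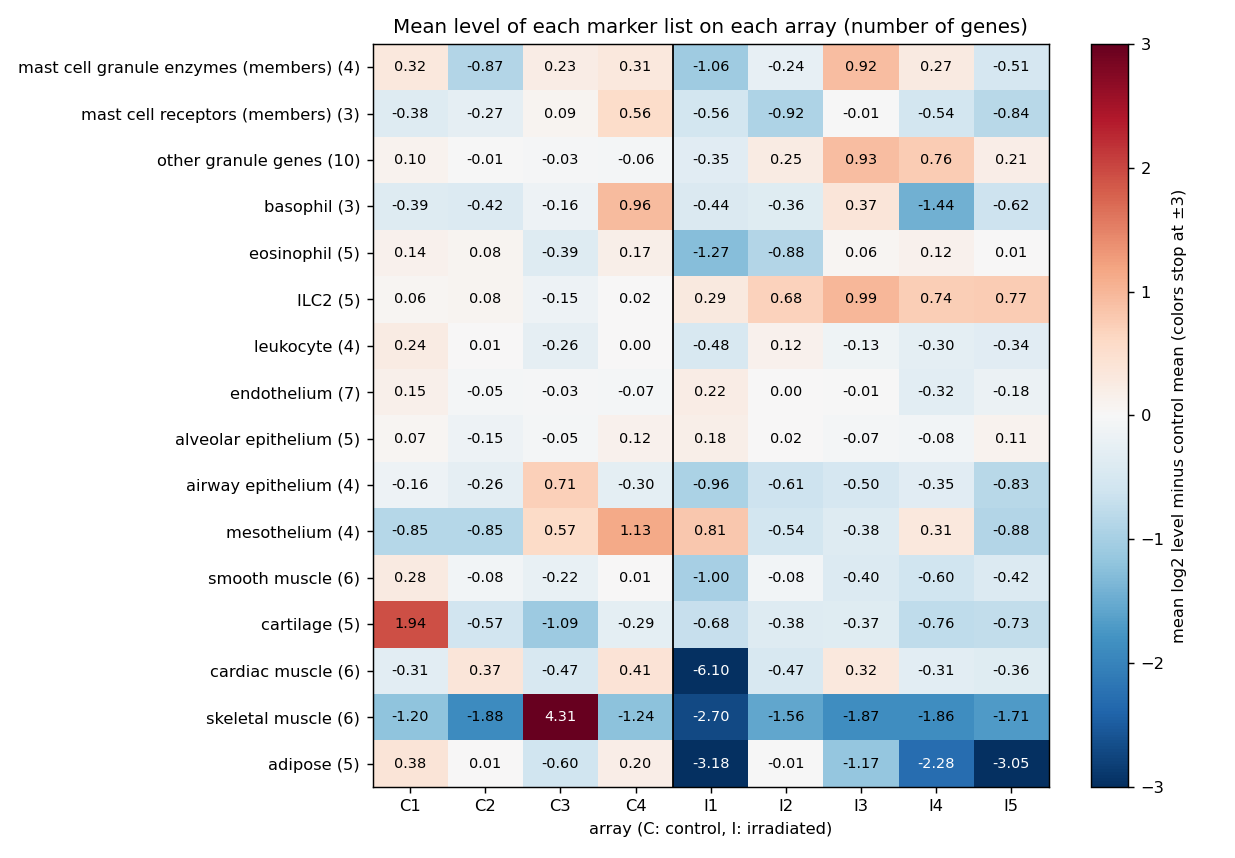
Mean log2 level of each list of genes on each array, with the mean of the 4 control arrays set to 0, and with the number of genes in parentheses; colors stop at 3 in either direction. Granule protease members are lowest on irradiated 1 (-1.06) and control 2 (-0.87) and highest on irradiated 3 (0.92); the cardiac list is at -6.10 on irradiated 1 and the skeletal list at 4.31 on control 3.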

How the data were processed

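RNA of 9 lung pools was hybridized to single-color Agilent mouse arrays. The authors deposited scanner output with intensity values, taken before normalization between arrays, and a table of normalized intensity values that matched the median signal minus local background (rank correlation 1.00 on every array). The scanner values were used, and the table was an alternative. Control spots and outlier spots were left out. A probe was kept where its median signal exceeded its local background 1.4-fold on 4 or more of 9 arrays (39303 of 39429). Log2 processed signals were quantile normalized, spots of a probe averaged, and groups compared with limma 3.58.1 in R 4.3.3 (intensity trend, no covariates). Gene names came from matching each probe's accession to a RefSeq table of GRCm38.p6, used for names and promoters only (26055 probes matched). The genome build of the array design is not given in the sources used here. Precision is limited by the number of arrays. The fit was tested on simulated data, and no result of that test is given or used here.

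The members and all gene lists were chosen with earlier results of these data known. Genes were named by rule: all members, the main regulators, ligands and basophil genes by name, and per list the genes past the threshold (otherwise up to 2 that did not overlap) and the brightest gene, plus the 5 genes most like the members. Genes of the chymase cluster, Ccr3, Gata1, Tek and Tph1 were named after their values were seen. Alternatives were normexp (offset 50), 75th percentile scaling, other filters, the authors' table, each array left out, replicate and scan pair blocks, no trend, array weights, the mean of a gene's probes, other thresholds and an exact permutation test. Scan pairs, and the fit without control 3 and irradiated 1, were added after the data were seen.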

Additional observations from a re-analysis of the deposited data

Results flagged for a closer look

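Within each group the highest or lowest array was checked for a gap to the rest (Dixon's test at the 95% level) for the mast cell probes and the other named genes. Of 78 groups 5 had such an array, or 6.41%, and chance gives about 5%. Among the members it was Cpa3 on control 2, which read 6.06 against 8.06 to 8.39 on the other control arrays. The remaining cases were Acta1 on control 3 (14.67 against 9.89 to 10.42), Tnnt3 on control 3 (14.30 against 8.56 to 9.46), Actc1 on irradiated 1 (13.24 against 15.39 to 15.96) and Cldn5 on irradiated 4 (15.25 against 15.85 to 16.07). No explanation was tested for these values.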

How the results depend on the processing

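No alternative other than those named here brought a mast cell gene past the threshold. The number of the 7 measured genes past it was 0 and became 1 (Kit) at an adjusted p under 0.1, with the scan pair block, with scan pairs as a random block, and without irradiated 1; over the fits that left out 1 array it ranged from 0 to 1. The number of genes whose groups did not overlap was 1 and became 2 with 75th percentile scaling and with normexp, which added Ms4a2, whose order is not measured at its level; 2.52% and 1.62% of all probes lay lower on every irradiated array in these settings. The number of probes past the threshold was 131. It was 5 at an adjusted p under 0.01, 352 at 0.1, 39 with the authors' table, 198 with the filter on all 9 arrays, 44 without the intensity trend, 0 with the exact permutation test, 1099 with the scan pair block, 2899 with scan pairs as a random block, and 5 to 483 when 1 array was left out. The lowest count came without control 3 and the highest without irradiated 1. The replicate numbers did not pair the arrays (correlation of deviations between -0.167 and 0.0622), and a replicate block called 1 probe and no mast cell gene.

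The median of the member differences was -0.22, ranged from -0.49 to -0.068 when 1 array was left out, and was 0.041 without control 3 and irradiated 1. Areg lost its call with the replicate block (difference 2.59, adjusted p = 0.258) and the exact permutation test (0.335). Chad lost its call with both (difference -1.76 with the replicate block), with the authors' table (difference -1.31, adjusted p = 0.252) and without the intensity trend (0.0507). The permutation test called no probe on the array, so a loss in that test says nothing about these 2 genes. Differences near 0 changed sign. With 75th percentile scaling they were -0.045 for Cma1, -0.024 for Cpa3, -0.14 for Cd200r3 and -0.20 for Sftpc. With the replicate block they were 0.083 for Fcer1a, -0.0081 for Hdc, 0.10 for the dimmer Tpsb2 probe and -0.024 for Cd200r3, and Cd200r3 had -0.046 with array weights, -0.15 in the authors' table and -0.091 with normexp. With the scan pair block they were -0.021 for Kitl, -0.057 for Rora and 0.12 for the dimmer Tpsb2 probe, and with the random block -0.025 for Rora and 0.050 for that probe. Without control 3 and irradiated 1 they were 0.041 for Tpsb2, 0.11 for its dimmer probe, 0.095 for Fcer1a, -0.056 for Kitl, -0.11 for Rora and -0.11 for Cd200r3. When 1 array was left out, the range was -0.40 to 0.46 for Cpa3, -0.24 to 0.39 for Cma1, -0.31 to 0.20 for Fcer1a, -0.27 to 0.12 for the dimmer Tpsb2 probe, -0.027 to 0.21 for Hdc, -0.069 to 0.20 for Kitl, -0.21 to 0.51 for Cd200r3, -0.088 to 0.12 for Rora and -0.0051 to 0.021 for Sftpc. It was 0.031 to 0.28 for Srgn, 0.044 to 0.17 for Alox5ap, 0.045 to 0.32 for Cldn5, 0.37 to 0.73 for Il1rl1, 0.13 to 0.25 for Mitf and 0.18 to 0.35 for Fcer1g. The cause of these changes was not tested. The depth of the signal limits Ms4a2, which was well above background on 2 of 4 control and 0 of 5 irradiated arrays.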
